A study of Mus musculus with 2 samples.

Results

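Cycling melanoblasts are melanoblasts, the migrating precursors of the pigment cells, that also held transcripts of dividing cells. They were chosen by UMIs (unique molecular identifiers, which count captured transcripts). A melanoblast had at least 5 UMIs of Dct, Pmel and Mlana together and at most 10 of Lum, Dcn, Col1a1 and Col3a1, and it was called cycling with at least 5 UMIs of Top2a, Mki67, Nusap1, Cdk1, Ccnb1 and Birc5. The rules took 177 cycling melanoblasts of 628 melanoblasts and 2368 cells in all, 140 of 491 melanoblasts in HIRA WT and 37 of 137 in HIRA KO. Since these counts chose the cells, the levels of the 13 genes are a description.

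The study compared sorted skin cells of mouse embryos with and without the histone chaperone HIRA in the lineage that makes melanocytes. Trunk skin was taken at E15.5, and live cells (negative for DAPI) that were positive for tdTomato were sorted and profiled with 10x 3′ single-cell RNA sequencing. The counts read here are from 1 library of each genotype. HIRA KO was TyrCreB::Hira fl/fl and HIRA WT was TyrCreB::Hira wt/wt, and both carried Cre and Rosa26-LSL-tdTomato on a mixed background close to C57BL/6J. The labels name no treatment. Embryos were processed one by one in the study, and the labels do not match a library to an embryo. Cre under the Tyr promoter is also active in some other neural crest lineages, and the gate held further cell types. Why each of these passed the gate was not tested.

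The WT cycling melanoblasts held 2691 Xist UMIs and the KO ones 1, while Eif2s3y had 0 and 16, so that sex and genotype vary together and cannot be told apart. Hira, the deleted gene, had 19 UMIs in the WT cycling melanoblasts and 0 in the KO ones, where the floor of 3 counts is 9.79 CPM (counts scaled to the total of the class). KO was thus at least 1.98-fold lower. Reads were tags near the 3′ end of transcripts, and a tag outside the deleted part of Hira checks nothing. The 2 libraries shared 0 cell barcodes.

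Markers that the rule did not use matched the name of the cells. Tyr, the enzyme that starts melanin synthesis, had a UMI in 72.9% of the WT and 83.8% of the KO cycling melanoblasts, against 3.09% of the WT macrophages and 0 of 18 KO macrophages, which allows up to 16.7%. Macrophages were chosen with under 5 UMIs of Dct, Pmel and Mlana together, so low pigment markers in them are partly set by that choice. The median depth was 6536.5 and 7857 UMIs in the cycling melanoblasts and 5532 and 6887 in the macrophages. With every cell thinned to 2000 UMIs, which left out 0 of these cycling cells and 1 macrophage, the Tyr shares were 37.9%, 32.4%, 0 and 0. The receptor gene Kit was found in 79.3% and 86.5% of the cycling melanoblasts and in 5.15% of the WT and 0 of 18 KO macrophages (thinned: 43.6%, 48.6%, 0 and 0). Sox10, a transcription factor of neural crest derivatives, was found in 80% and 86.5% against 8.25% and 11.1% (thinned: 37.1%, 51.4%, 2.08% and 5.56%). Tyrp1, a later pigment enzyme, was rarely detected, with UMIs in 5 of 140 WT and 0 of 37 KO cells, which allows up to 8.11% of cells with a UMI.

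A dividing cell copies its DNA in S phase and sorts the copies in mitosis, and each step has its own set of transcripts. Replication genes such as the Mcm helicase peak early, and genes of the spindle, the kinetochore and chromosome condensation peak in G2 and mitosis. Melanoblasts divide while they spread through the dermis and epidermis, and HIRA deposits histone H3.3 outside replication.

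The share of melanoblasts that were cycling was 28.5% in WT (95% interval 24.6 to 32.7) and 27.0% in KO (19.8 to 35.3). The difference, KO minus WT, was -1.51 points (-9.41 to 7.34), so no difference was detectable at this depth. A threshold of 3 UMIs of the cycle genes gave 35.6% and 35.8%, and one of 10 gave 16.3% and 14.6%. With the rules applied to cells thinned to 2000 UMIs the shares were 11.3% (42 of 371) and 8.41% (9 of 107), and the difference was -2.91 points (-8.25 to 4.46). Of all cells in the library, cycling melanoblasts were 9.09% in WT and 4.47% in KO, a difference of -4.62 points (-6.58 to -2.51). That last share follows all the cell types that the gate let through, and no replicate among the counts read here measures how it varies between sorts.

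The KO share moved with the cap on mesenchymal transcripts. Of the cycling melanoblasts, 24 of 37 in KO held 3 to 10 UMIs of Lum, Dcn, Col1a1 and Col3a1, and 4 of 140 did in WT. With a cap of 2 UMIs, 13 KO cells were cycling melanoblasts, a share of 16.5% (9.06 to 26.5), and the difference from WT was -11.9 points (-19.7 to -1.51). The same 4 genes had 3 to 10 UMIs in 8 of 18 KO macrophages and in 2 of 97 WT macrophages, so they were raised in a cell type that should lack them too. Macrophages were also chosen with at most 10 UMIs of these genes. Their part in the share was not tested.

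**Figure D1:**
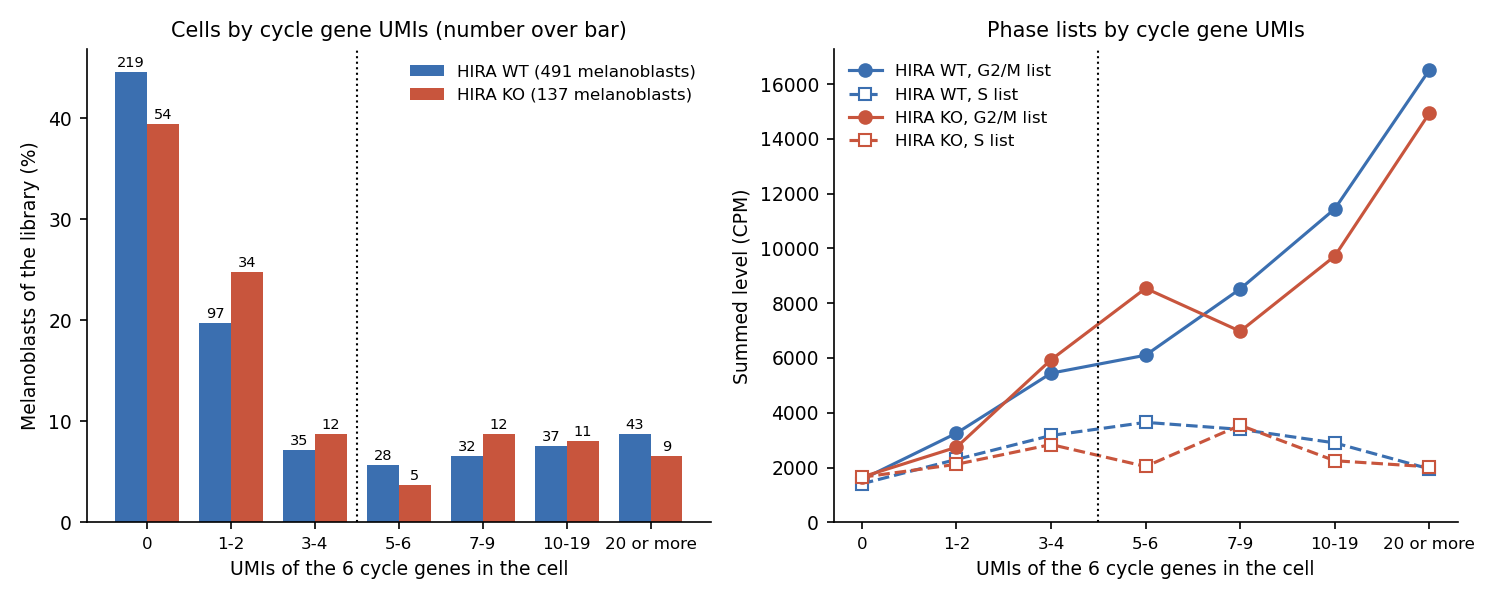
The left plot gives the share of each library's melanoblasts (%) by the UMIs of the 6 cycle genes in the cell, and the right plot gives the summed level (CPM) of published S and G2/M phase genes in the same cells. The dotted line is the rule: 35 WT and 12 KO cells lay just outside it at 3 to 4 UMIs, and 28 and 5 just inside it at 5 to 6.

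The cycle genes of the rule differed in how much they contributed. Top2a, the topoisomerase that untangles chromosomes, gave 26.7% of the 6-gene sum in WT and 27.5% in KO, at 568 and 457 CPM. Birc5, a part of the chromosomal passenger complex, stood at 516 and 392 CPM. The proliferation marker Mki67 was the scarcest, with 92.1 and 81.6 CPM. A cycling melanoblast held a median of 12 UMIs of the 6 genes in WT and 10 in KO, and the highest cell held 68 and 39. Cells just outside the threshold also held G2/M transcripts. In WT the G2/M genes summed to 5446 CPM at 3 to 4 UMIs and to 6102 CPM at 5 to 6, and in KO to 5936 and 8544 CPM.

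The chosen cells held more transcripts of G2 and mitosis than of S phase. With cells thinned to 2000 UMIs, the cycling melanoblasts held a mean of 23.1 UMIs of the G2/M genes in WT and 20.5 in KO, and 5.61 and 4.51 of the S genes. The other melanoblasts held 4.90 and 5.25 of the G2/M genes and 3.29 and 3.50 of the S genes, with 7 WT cells left out as too shallow. The G2/M list holds 5 of the 6 genes that chose the cells, so its excess follows from the rule and is a description. Genes of the same phase rise together, so leaving out those 5 does not make the comparison independent of the rule. Without those 5 genes the means were 19.3 and 17.3 in the cycling melanoblasts and 4.58 and 5.05 in the others, and 111 of 140 WT and 31 of 37 KO cycling melanoblasts had more G2/M than S UMIs, against 174 of 344 and 52 of 100 other melanoblasts. This reading was added after the values were seen. The S genes rose with the cycle sum and then fell in WT, from 1408 CPM at 0 UMIs of the cycle genes to 3650 CPM at 5 to 6 and 1951 CPM at 20 or more. In KO they had 1646 CPM at 0 UMIs, 2840 at 3 to 4, 2040 at 5 to 6, 3543 at 7 to 9 and 2027 at 20 or more, with 12, 5, 12 and 9 cells in the last 4. At least 5 S and under 5 G2/M UMIs were held by 38 of 344 WT and 12 of 100 KO other melanoblasts after thinning.

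Against the other melanoblasts, 48 of 2074 measured genes were at least 2-fold higher in the cycling ones in both libraries (2.31%), and 1 was at least 2-fold lower (0.0482%). This contrast is the one the rule used, so its values are a description. The CPM minimum is on the mean of cycling and other cells. A gene low in the other melanoblasts was thus measured only if it was high in the cycling ones, as Spc25 was in WT, at 212 against 15.9 CPM. Counts of calls and medians in the cycle lists below are partly set by that minimum. The median log2 ratio of the 48 was 2.32 in WT and 2.09 in KO. Of them, 36 were in lists of cycle, phase or chromatin genes, and the other 12 were not. A minimum of 20 CPM gave 117 higher genes and one of 100 CPM gave 30.

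Genes of the spindle and its motors were higher in the cycling cells. Nusap1, which bundles spindle microtubules and is a gene of the rule, had log2 ratios of 5.24 in WT (4.38 to 6.26) and 6.60 in KO (4.06 to 11.9), the latter against 1 UMI in the other melanoblasts. Prc1, which bundles the midzone microtubules of anaphase, had 4.35 and 3.07, and was chosen after its values were seen. Of the 38 genes of the spindle, kinesins and cytokinesis, 10 were measured. Of these 8 were called, with medians of 2.32 and 2.23 (2.27 and 2.16 without Nusap1) against 0.03 and 0.01 over all measured genes. The most abundant member was the tubulin gene Tubb5, at 2771 CPM in WT and 2353 in KO, with ratios of 1.30 and 1.19. Tubulin genes are near copies of each other, so their single counts are uncertain.

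Genes of the kinetochore, which holds chromosomes to the spindle, were higher too. Of its 30 genes 9 were measured, and 7 of these were called, with medians of 2.88 and 1.91. Spc25, of the microtubule-binding Ndc80 complex, had ratios of 3.74 and 3.46. Cenpf had 3.08 and 3.25. Cenpe, a motor at the kinetochore, had 2.88 in WT and 4.21 in KO. Zwint was nearest to 0 in this list, with 0.48 and 0.20.

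Mitotic kinases and the machinery that ends mitosis were higher as well. Of 23 genes 10 were measured, and 7 of these were called, with medians of 2.41 and 2.0 (2.02 and 1.84 without Birc5). Ube2c, the enzyme that passes ubiquitin to the anaphase-promoting complex, stood at 660 CPM in WT and 623 in KO, with ratios of 4.26 and 3.78. Ube2s, which extends the chains on the same complex, had 1.57 and 1.48. Pttg1, the securin gene, did not follow the list, with -0.12 and -0.10.

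Of 11 measured cyclins and cyclin-dependent kinases 6 were called, with medians of 1.47 and 1.47. Without the 2 genes of the rule, 4 of 9 were called and the medians fell to 0.15 and 0.38. Ccnb1, the cyclin of mitosis and a gene of the rule, had ratios of 4.24 and 3.37. Cks2, a small subunit of the cyclin-dependent kinases, had 2.26 and 1.79. Ccnd2, a cyclin of G1, had ratios of -1.02 in WT and -0.97 in KO, and was not called. Its kinase partner Cdk4 had 0.07 and 0.18.

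Replication genes were nearer to 0. Of 10 measured genes of licensing and the replication fork 0 were called, with medians of 0.60 and 0.18. That count is near the share over all measured genes, 2.31% called higher, so it does not set this list apart from them. Pcna, the sliding clamp of the fork, had ratios of 0.76 and 0.60, and the most abundant S gene of the published list, the histone chaperone gene Nasp, had 0.32 and 0.36. In nucleotide synthesis 1 of 6 genes was called, Rrm2, a subunit of ribonucleotide reductase, with 1.20 and 1.42. The call depended on the rule: the ratios were -0.03 and 0.42 with the rules on thinned cells, and 0.04 and 0.40 with at least 10 UMIs of the cycle genes. The published lists showed the same order. Of the 54 G2/M genes 22 were measured. Of these 18 were called, with medians of 2.27 and 2.23 (14 of 18, with 2.05 and 1.90, without the genes of the rule). Of the 43 S genes 14 were measured and 1 was called, with medians of 0.57 and 0.39.

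Chromosome condensation and topology had 5 of 11 measured genes called, with medians of 1.16 and 0.92 (4 of 10, with 1.02 and 0.91, without the genes of the rule). Hmgb2, a chromatin protein of dividing cells, stood at 2693 CPM in WT and 2297 in KO, with ratios of 2.06 and 1.89. Its relative Hmgb1, as abundant, had 0.53 and 0.53. Among histone chaperones and variants 2 of 14 genes were called, and the medians were 0.44 and 0.18. H2afx, the variant histone phosphorylated at DNA breaks, had 2.91 and 2.33, and H2afz, the most abundant of the list, had 0.95 and 0.83.

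**Figure D2:**
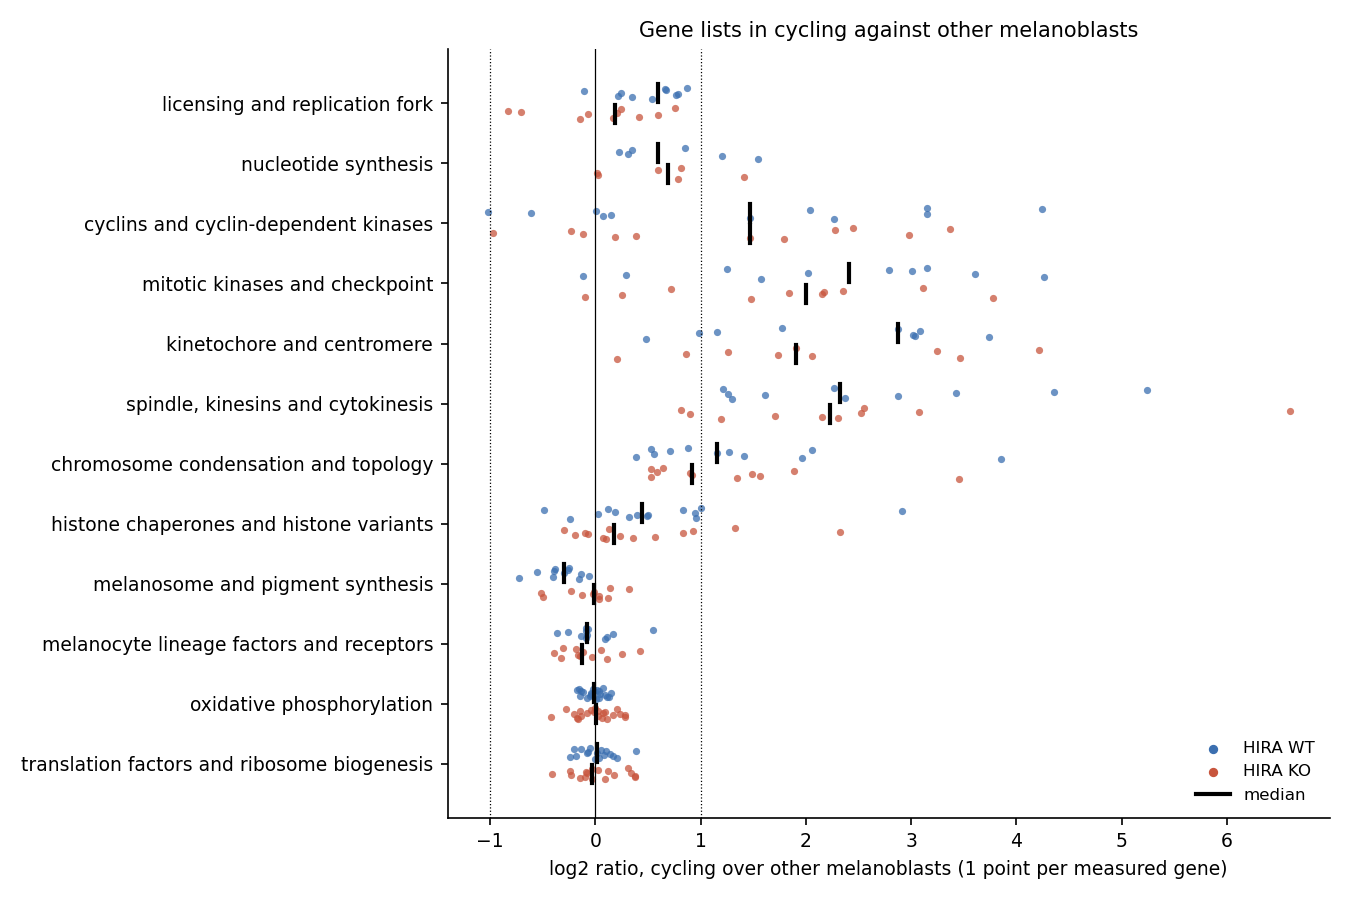
Each point is a measured gene, placed by its log2 ratio of cycling over other melanoblasts in HIRA WT or HIRA KO, with the median of each list as a bar and dotted lines at 2-fold. Spindle, kinetochore and mitotic lists have medians between 1.91 and 2.88, and pigment, lineage, respiratory and translation lists lie near 0. The CPM minimum takes in a gene low in the other melanoblasts only if it is high in the cycling ones.

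Outside those lists, single histone genes of the replication-dependent clusters were among the highest and the lowest genes. Histone genes of these clusters formed no list, so the share of them that changed was not counted. Most of their transcripts end in a stem-loop and lack a poly(A) tail, and the copies are nearly the same in sequence, so the counts are uncertain. Hist1h2ap had log2 ratios of 4.09 in WT and 3.99 in KO, and Hist1h2ae had 3.55 and 2.54. The single gene called lower was also a histone gene: Hist1h2bc had -1.76 and -2.09. Kpna2, a nuclear import receptor, had 4.04 and 2.71, and Arl6ip1, a membrane protein of the endoplasmic reticulum, had 2.44 and 2.13. Cdkn2d, an inhibitor of the G1 kinases, was higher in the cycling cells, with 1.91 and 1.26. Lockd, a noncoding RNA beside Cdkn1b, had 2.14 and 2.04. At the other end, below the 2-fold line, were the small nucleolar host genes Snhg9, with -0.85 and -0.77, and Snhg18, with -0.79 and -0.68.

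As sums, melanocyte genes were level or slightly lower in the cycling melanoblasts than in the others. None of 11 measured genes of the melanosome and pigment synthesis was called, where 2.31% of all measured genes were called higher and 0.0482% lower. The medians were -0.29 in WT and -0.02 in KO. The list's sum, genes of the rule included, had ratios of -0.34 in WT (-0.39 to -0.30) and 0.07 in KO (-0.003 to 0.15). Dct, the abundant dopachrome tautomerase and a gene of the rule, had a ratio of -0.39 in WT and 0.32 in KO. Of 12 measured lineage factors and receptors 0 were called, with medians of -0.08 and -0.13. Their list's sum had ratios of -0.15 (-0.22 to -0.09) and -0.18 (-0.29 to -0.07). Ptgds, a prostaglandin synthase gene outside both lists, had -0.56 and -0.30. Respiratory genes had medians of -0.01 and 0.01 over 22 genes, and translation genes 0.02 and -0.03 over 17.

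**Figure D3:**
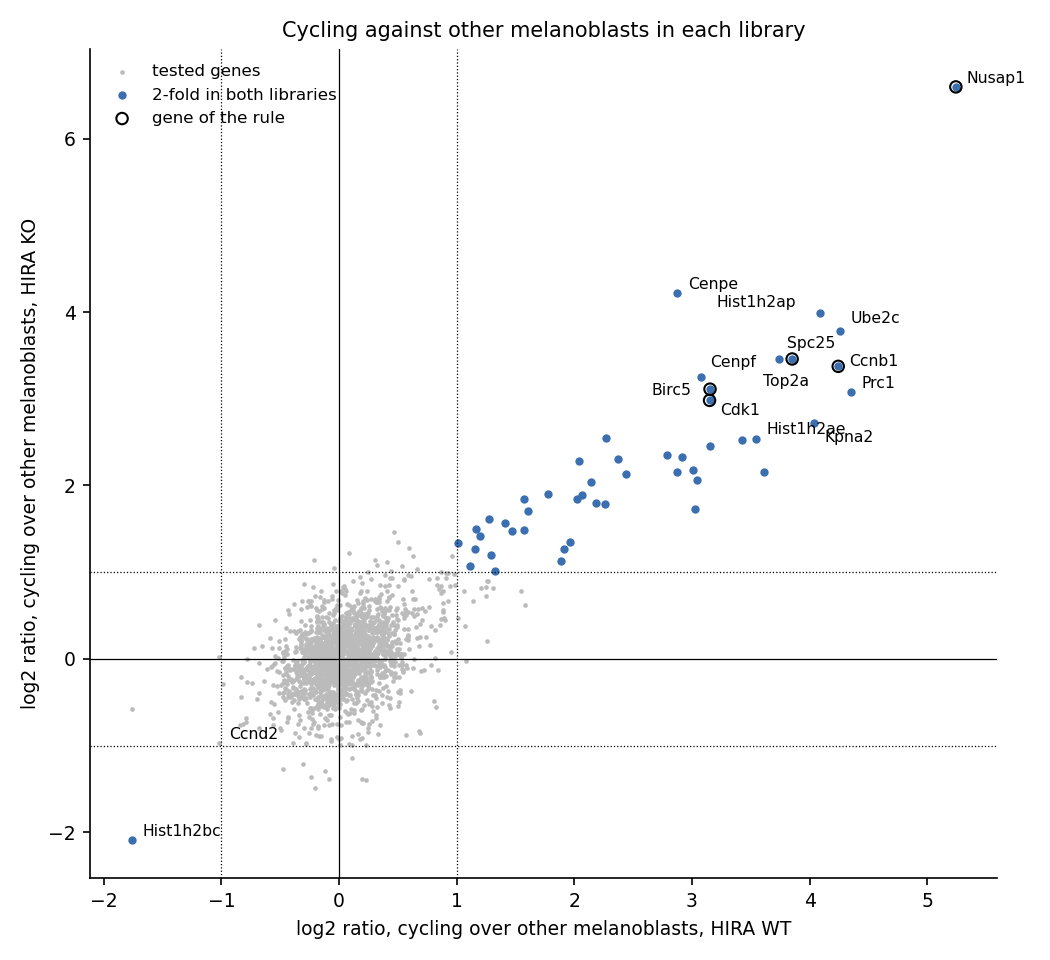
Each point is 1 of the measured genes, with its log2 ratio of cycling over other melanoblasts in HIRA WT on the horizontal axis and in HIRA KO on the vertical axis. Dotted lines mark 2-fold, circles the genes of the rule, and filled blue points the 48 genes higher and the 1 gene lower in both libraries.

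Letters known from promoters of G2 and mitosis genes were searched for in those of the called cycle genes. Promoters of that kind often hold a cell cycle genes homology region, bound by the MuvB complex, and CCAAT boxes, bound by NF-Y. RefSeq windows on GRCm38.p6, from 250 bases before to 50 after the start, were found for 29 of the 36 called cycle genes, in 30 windows. Ccna2, Smc4, Pbk, Spc24, H2afx, Rad21 and Sgol1 had none. The letters TTTGAA on either strand were in 18 of the 30 windows (60%) and in 5878 of all 32851 windows (17.9%). TTTGAA or TTCGAA was in 19 (63.3%) and in 6316 of all windows (19.2%). CCAAT on either strand was in 25 (83.3%) and in 12289 of all windows (37.4%), and both kinds of letters together were in 18 (60%) and in 2472 (7.52%). By gene, 17 of the 29 held both, and Nusap1, Mad2l1, Birc5 and Tuba1b held neither. A match is a description, not a site or a cause, and matches on opposite strands may overlap.

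The 5 windows printed are those of the called cycle genes with the largest ratios that hold both motifs, so they show the motifs where they occur and say nothing of how common they are. They are Ube2c (chr2:164769679-164769978, plus strand), Spc25 (chr2:69206164-69206463, minus strand), Top2a (chr11:99024140-99024439, minus strand), Cenpf (chr1:189688037-189688336, minus strand) and Prc1 (chr7:80294201-80294500, plus strand). Each runs 5′ to 3′ along the gene, with every match of the searched letters, on either strand, in capitals. Top2a holds 4 matches of the first 2 motifs and 6 of CCAAT, and Prc1 holds 1 of each.
Ube2c: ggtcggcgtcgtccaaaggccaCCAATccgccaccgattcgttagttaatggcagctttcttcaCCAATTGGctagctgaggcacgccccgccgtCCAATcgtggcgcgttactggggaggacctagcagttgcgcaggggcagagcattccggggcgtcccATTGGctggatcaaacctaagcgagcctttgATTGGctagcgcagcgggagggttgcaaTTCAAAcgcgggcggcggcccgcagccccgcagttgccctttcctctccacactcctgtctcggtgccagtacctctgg
Spc25: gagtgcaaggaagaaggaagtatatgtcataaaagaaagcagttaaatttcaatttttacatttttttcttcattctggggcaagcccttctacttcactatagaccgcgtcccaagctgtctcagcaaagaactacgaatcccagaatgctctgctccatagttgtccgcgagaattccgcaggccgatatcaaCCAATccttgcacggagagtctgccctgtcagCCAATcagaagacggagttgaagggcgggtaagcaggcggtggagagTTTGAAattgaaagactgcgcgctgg
Top2a: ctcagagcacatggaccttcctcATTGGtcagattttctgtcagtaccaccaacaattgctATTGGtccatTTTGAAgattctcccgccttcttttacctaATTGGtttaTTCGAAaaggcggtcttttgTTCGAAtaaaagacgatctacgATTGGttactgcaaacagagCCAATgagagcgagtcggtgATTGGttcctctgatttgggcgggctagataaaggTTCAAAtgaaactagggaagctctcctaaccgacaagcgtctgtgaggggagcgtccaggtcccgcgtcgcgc
Cenpf: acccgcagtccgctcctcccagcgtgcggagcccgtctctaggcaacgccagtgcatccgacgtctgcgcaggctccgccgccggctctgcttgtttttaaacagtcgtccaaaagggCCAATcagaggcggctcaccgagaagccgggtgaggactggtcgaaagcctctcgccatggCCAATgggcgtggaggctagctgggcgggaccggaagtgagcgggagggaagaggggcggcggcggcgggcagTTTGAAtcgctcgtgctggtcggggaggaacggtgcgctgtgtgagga
Prc1: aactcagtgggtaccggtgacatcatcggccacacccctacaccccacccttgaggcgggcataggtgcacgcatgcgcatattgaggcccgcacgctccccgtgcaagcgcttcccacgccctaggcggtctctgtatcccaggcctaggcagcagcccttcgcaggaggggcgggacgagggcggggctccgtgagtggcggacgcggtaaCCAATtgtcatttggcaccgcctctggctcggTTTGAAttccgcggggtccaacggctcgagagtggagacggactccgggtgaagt

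Between the genotypes, 43 of 2352 measured genes were at least 2-fold higher in the KO cycling melanoblasts (1.83%) and 22 were at least 2-fold lower (0.935%). In the other melanoblasts 34 of 2238 genes were higher (1.52%) and 18 lower (0.804%), and both comparisons share the 2 libraries. With 1 library of each genotype no test can be made, and the intervals given cover counting error alone. None of the 43 higher genes was in a cycle, phase or chromatin list, where these lists held 125 of the 2352 measured genes. At that share, a count of 0 in 43 does not set the lists apart. Of the 43, 1, Cdkn1c, was in the list of cycle inhibitors and p53 targets, with 6 measured genes, which is kept apart from these. Of the 43, 11 were markers of other cell types and 11 were predicted genes, pseudogenes or the noncoding AY036118, whose counts are uncertain. Of the 22 lower genes, 3 were markers of other cell types. The sex-linked Xist and Tsix were also among the 22, and sex and genotype cannot be told apart here. By list, 3 of 20 mesenchymal, 4 of 13 keratinocyte and 4 of 10 erythroid genes were measured, and all were called higher. Of the 3 mesenchymal genes, 2 are capped by the rule. The 2 measured macrophage genes and 1 of 2 measured glial genes were called lower. The CPM minimum is on the mean of both libraries, so a gene low in 1 was measured only if it was high in the other. Col3a1 had 21.5 CPM in WT and 137 in KO, and Fcer1g, a macrophage gene, had 86.0 and 19.6. The calls by list are thus partly set by that minimum and are a description. The counts of calls followed the settings: with the mesenchymal cap at 2 UMIs, which leaves 13 KO cells, 122 genes were higher and 101 lower. With the rules on thinned cells, which leaves 9 KO cells, 156 were higher and 167 lower. A minimum of 100 CPM gave 13 higher and 2 lower, and one of 20 CPM gave 188 and 174. Scaling without mitochondrial, ribosomal protein, globin and rule genes, in the same cells, gave 98 higher and 71 lower of 3321 measured genes, and 48 and 21 among the 2352 measured before.

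Globin transcripts had some of the highest ratios. Hbb-bs, an adult beta globin, stood at 50.1 CPM in the WT cycling melanoblasts and 669 in KO, a log2 ratio of 3.74 (3.28 to 4.22). The ratio was 4.20 in the other melanoblasts and 4.17 in macrophages, so it did not set the cycling cells apart. The 10 erythroid genes summed to 90.0 CPM in WT and 1103 in KO. Hbb-bs was the most abundant in both, and 6 of the 10 were at 0 in WT and 5 in KO. In KO, 34 of 37 cycling melanoblasts held 5 or more globin UMIs, and in WT 1 of 140 did. Among macrophages 17 of 18 did in KO and 2 of 97 in WT. Globin copies are nearly the same in sequence, so the single genes are uncertain.

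Keratinocyte and mesenchymal transcripts were higher in KO as well. Krt1, a keratin of differentiating epidermis, had 0 UMIs in WT and 35 in KO, at least 37.2-fold more. The 13 keratinocyte genes summed to 165 CPM in WT and 1067 in KO. Lgals7 was the most abundant in both libraries, and 1 gene of the list was at 0 in WT and 0 in KO. Col1a1, a fibrillar collagen, stood at 18.4 and 153 CPM, a ratio of 3.06 (2.25 to 3.93), and in macrophages at 28.0 and 155 CPM. The 20 mesenchymal genes summed to 174 CPM in WT and 777 in KO, and without the 4 genes that the rule caps to 101 and 369 CPM. Col1a2 was the most abundant in WT and Col1a1 in KO, and 2 and 3 genes were at 0. The deposited counts hold only barcodes called as cells, so RNA from outside the cells could not be estimated or removed. Its part and that of these cell types in the globin, keratin and collagen values was not tested.

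Macrophage and mast cell transcripts went the other way. The 13 macrophage genes summed to 504 CPM in WT and 104 in KO, with Pf4 the most abundant in WT and Lyz2 in KO, and 0 and 3 genes at 0. In WT 2 of the 140 cells held 72.6% of the list's UMIs, and 1 held 66.9% of those of Pf4. In the other melanoblasts the list summed to 128 and 96.4 CPM, a ratio of -0.41 (-0.89 to 0.04). The 10 mast cell genes summed to 122 and 29.4 CPM, with Cma1 the most abundant in both and 5 and 6 genes at 0. Their part in the result was not tested. Fabp7, the brain-type fatty acid binding protein, stood at 148 CPM in WT and 32.6 in KO, a log2 ratio of -2.18 (-3.28 to -1.26), and its ratio in the other melanoblasts was -1.94. With the rules on thinned cells, which leaves 9 KO cells, the Fabp7 ratio in cycling melanoblasts was -0.95 (-2.47 to 0.29), an interval that held 0. With the mesenchymal cap at 2 UMIs, which leaves 13, it was -3.87 (-9.18 to -1.37).

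**Figure D4:**
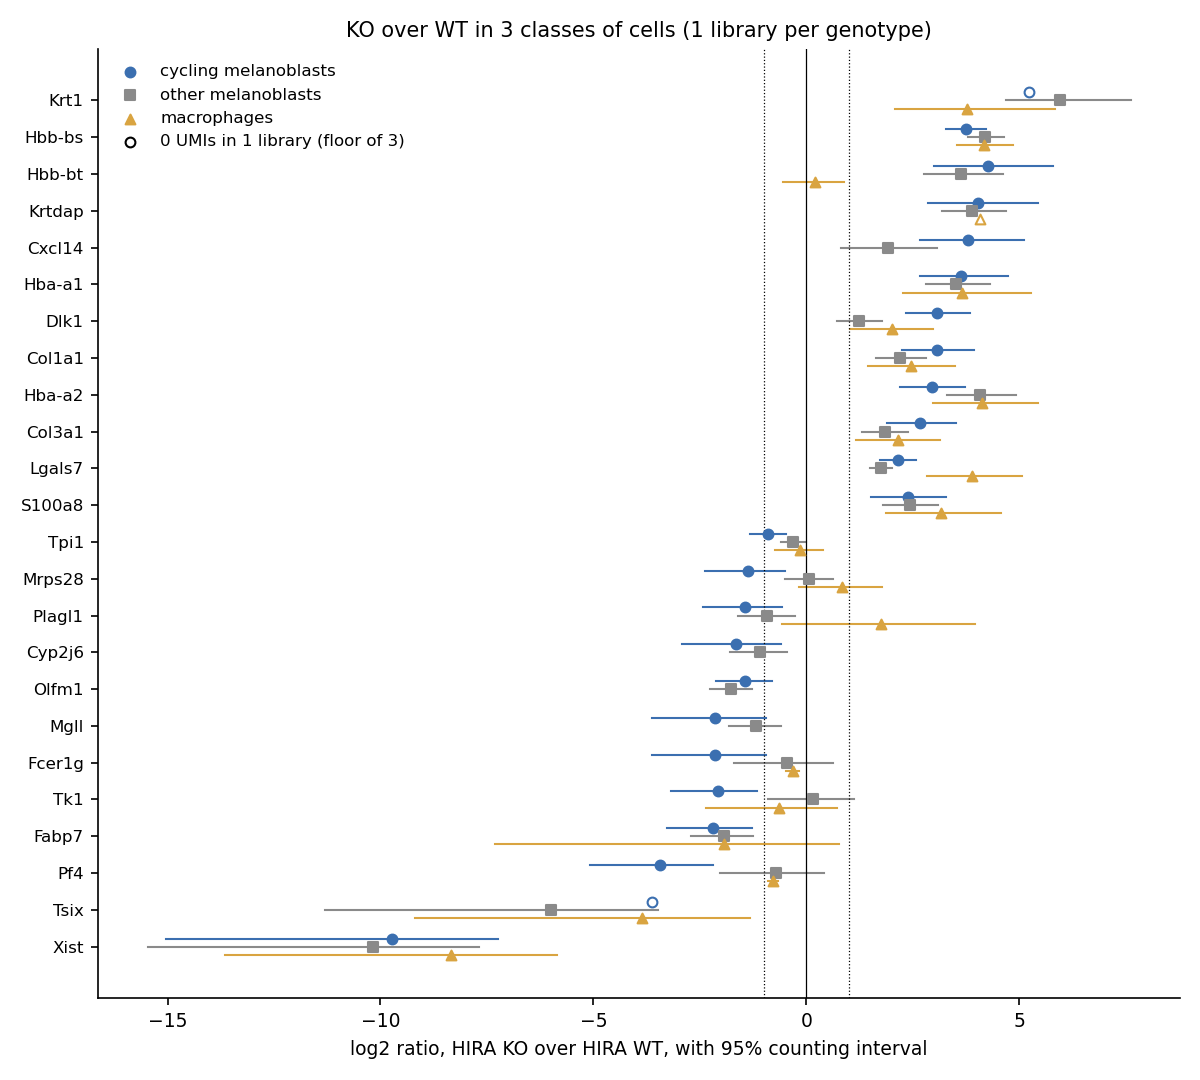
Points are log2 ratios of HIRA KO over HIRA WT with 95% counting intervals, for the 12 genes highest and the 12 lowest in KO by the nearer bound, in cycling melanoblasts, other melanoblasts and macrophages, which share the 2 libraries. Open symbols have 0 UMIs in 1 library, are placed at the floor of 3 counts and carry no interval. Most of the higher genes were also higher in macrophages. Tk1 had -2.08 in the cycling melanoblasts and 0.15 in the other melanoblasts, where only 26 of 351 WT and 11 of 100 KO cells held a UMI of it.

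Of 125 measured cycle, phase and chromatin genes, the cycle inhibitors not counted, 2 were past 2-fold between the genotypes (1.6%), Tk1 and Mcm5, both lower, where 0.935% of all measured genes were called lower and 1.83% higher. Of the 125, 78 had a KO over WT ratio below 0 (62.4%), the median was -0.15, and 101 had an interval that held 0 (80.8%). Over all 2352 measured genes, 1281 lay below 0 (54.5%), the median was -0.03, and 1988 intervals held 0 (84.5%). Tk1, the thymidine kinase of S phase, stood at 138 CPM in WT and 32.6 in KO, a log2 ratio of -2.08 (-3.17 to -1.16), and it was past 2-fold under all 10 alternatives that bear on single genes. It had a UMI in 70 of 140 WT (50%) and 7 of 37 KO cycling melanoblasts (18.9%), and in 19.6% of WT and 22.2% of KO macrophages, some of which also divide. Thinned to 2000 UMIs, the shares were 21.4% and 5.41% in the cycling melanoblasts and 4.17% and 11.1% in the macrophages. Mcm5, a subunit of the replicative helicase, had 86.0 and 42.4 CPM and a ratio of -1.02 (-1.99 to -0.17), against 0.49 in the other melanoblasts, and was under 2-fold in 6 of the 10 alternatives, nearest to 0 without cells holding markers of another class, at -0.62 (-1.59 to 0.23).

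As sums, the cycle lists were level or slightly lower in KO. The 6 genes of the rule, whose UMIs chose the cells, had a summed log2 ratio of -0.36 (-0.50 to -0.22). Licensing and the replication fork had -0.28 (-0.41 to -0.15), and nucleotide synthesis had -0.26 (-0.40 to -0.12). The spindle list had -0.31 (-0.37 to -0.24), while the kinetochore list had -0.11 (-0.23 to 0.01). Tuba1b, an abundant alpha tubulin, accounted for part of the spindle sum, at 2077 CPM in WT and 1619 in KO. Histone chaperones and variants had 0.08 (0.03 to 0.14). Hist1h2ap was higher in KO, at 364 and 659 CPM, a ratio of 0.86 (0.60 to 1.11) and 0.96 in the other melanoblasts.

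For the other subunits of the HIRA complex no difference was detectable at this depth. Ubn1 had 52 UMIs in WT and 23 in KO, a ratio of 0.50 (-0.28 to 1.23). Its paralogue Ubn2 had 31 and 15 UMIs, a ratio of 0.63 (-0.37 to 1.56). Cabin1, another subunit, had 13 and 2 UMIs, a ratio of -1.03 (-4.22 to 1.12). Asf1a, which hands histones to HIRA, had a ratio of 0.09 (-0.64 to 0.77). The H3.3 genes were abundant. H3f3a stood at 2358 CPM in WT and 2686 in KO, a ratio of 0.19 (0.07 to 0.30), and H3f3b at 2400 and 2311 CPM, a ratio of -0.05 (-0.18 to 0.07) against 0.54 in the other melanoblasts.

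Outside the genes of the rule, no difference in the summed pigment genes was detectable at this depth. The 22 genes of the melanosome and pigment synthesis had a summed ratio of 0.19 (0.12 to 0.26) in the KO cycling melanoblasts and -0.23 in the other melanoblasts. Without Dct, Pmel and Mlana, which chose the cells, the ratios were 0.04 (-0.11 to 0.18) and -0.11 (-0.21 to -0.004), a reading added after the values were seen. Dct stood at 2684 CPM in WT and 3472 in KO, a ratio of 0.37 (0.27 to 0.47), against -0.34 in the other melanoblasts. Dct was counted by the rule for melanoblasts, so these values are a description, and the ratio ran from -0.12 with the rules on thinned cells to 0.60 with the mesenchymal cap at 2 UMIs. Trpm1, a cation channel of melanocytes, had 75.7 and 189 CPM, a ratio of 1.32 (0.80 to 1.84). It was the only one past 2-fold among the 11 measured genes of the list. Its ratio was 0.68 with the mesenchymal cap at 2 UMIs and 0.21 with the rules on thinned cells. Mitf, the lineage's main transcription factor, had 0.23 (-0.17 to 0.63), and Sox10 had 0.20 (-0.16 to 0.56). Kit and Tyr also had intervals that held 0.

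Further genes past 2-fold in the KO cycling melanoblasts had varied roles. Dlk1, an imprinted Notch ligand relative, stood at 22.5 CPM in WT and 189 in KO, a ratio of 3.07 (2.34 to 3.85), with 1.25 in the other melanoblasts and 2.0 in macrophages. In cells with over 10 UMIs of Lum, Dcn, Col1a1 and Col3a1 and under 5 of the pigment genes it stood at 2515 and 4254 CPM, and the part of mesenchymal transcripts in its ratio was not tested. Cdkn1c, an imprinted inhibitor of cyclin-dependent kinases, had 24.6 and 81.6 CPM and a ratio of 1.73 (0.86 to 2.60), or 0.67 with the rules on thinned cells, with 0.87 in the other melanoblasts and 1.89 (0.79 to 2.98) in macrophages. It too was abundant in those mesenchymal cells, at 1343 and 2402 CPM. Tubb3, a beta tubulin known from neurons, had 74.7 and 173 CPM and a ratio of 1.21 (0.67 to 1.74), with 0.72 in the other melanoblasts. For Cxcl14, a chemokine, 1 cell held 87.5% of the WT and another 60% of the KO UMIs. Among the lower genes, Olfm1, a secreted olfactomedin, had 203 and 75.1 CPM and a ratio of -1.43 (-2.12 to -0.81). Its ratio in the other melanoblasts was -1.76 (-2.27 to -1.28). Mgll, a lipase of monoglycerides, had 84 and 6 UMIs and a ratio of -2.13 (-3.62 to -0.95), with -1.17 in the other melanoblasts.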

How the data were processed

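The values are UMI counts per gene and cell barcode that the authors deposited, made with Cell Ranger 2.2.0 on mm10, with 28000 genes and 1 library per genotype. WT had 1546 barcodes and 7073939 UMIs, KO 846 barcodes and 5049514 UMIs. A barcode was kept with at least 100 genes and at most 10% of its UMIs from mitochondrial genes, which dropped 6 in WT and 18 in KO, and doublets were kept. Per library and class, UMIs of all cells were added up (977288 UMIs in WT and 306421 in KO cycling melanoblasts) and scaled to CPM. A gene was measured with a mean of at least 50 CPM over the compared groups, and called at 2-fold or more. Shares have 95% Clopper-Pearson intervals (a share of 0 has the limit of 3 counts over the cells), their difference a Newcombe interval, and log2 ratios an exact conditional binomial interval. All intervals cover counting error only. A count of 0 was set to a floor of 3 counts, and no ratio is given where both counts are at or under it. No test was made, since cells are not replicates. Thinning drew 2000 UMIs from each cell. Macrophages had at least 5 UMIs of C1qa, C1qb, C1qc and Csf1r, under 5 of Dct, Pmel and Mlana, and at most 10 of Lum, Dcn, Col1a1 and Col3a1. They served as a class that should lack pigment transcripts, which that choice also limits. Glia, besides the limits given above, had at most 10 UMIs of the same mesenchymal genes and under 5 of the macrophage genes.

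The members and the 28 gene lists were chosen with earlier results of these data known. Named genes are the genes of the rule, the most abundant and the extreme members of each list, the 10 highest and the 10 lowest outside cycle, phase and chromatin lists in cycling against other melanoblasts, the 12 highest and the 12 lowest in KO by the interval bound nearer 0, the HIRA, H3.3 and sex-linked genes, and the genes the article names. Alternatives changed the thresholds, the cell filters, the depth, the averaging, the CPM minimum and the scaling. Scripts used Python 3.11.15, NumPy 2.4.6, pandas 2.3.3, SciPy 1.17.1, scanpy 1.11.5 (for Scrublet) and matplotlib 3.10.9, and the ratios were tested on simulated data. Promoters are from RefSeq, GRCm38.p6.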

Additional observations from a re-analysis of the deposited data

How the results depend on the processing

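Each value was recomputed under the alternatives, 1 at a time. Of 1325 recomputed log2 ratios of named genes past 2-fold, 1318 kept their sign and 84 of these fell under 2-fold. List medians stayed within the interval of the main median (by order statistics, or the range of the genes where fewer than 6 were measured) in 518 of 540 comparisons. Leaving out Scrublet doublets or barcodes under 500 genes moved no share, count or list median past its limit. The KO library limits the depth: 37 cells, and 13 or 9 under the strictest settings. The cause of the changes below was not tested, except that a lower CPM minimum or the other scaling measures more genes.

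With at least 3 UMIs of the cycle genes the cycling shares were 35.6% in WT and 35.8% in KO. With at least 10 they were 16.3% and 14.6%, 74 genes were higher and 51 lower in KO, and the medians of cycling over other in WT were 0.21 for replication, 0.22 for nucleotide synthesis, -0.14 for translation and 0.21 for the S list.

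With the rules on cells thinned to 2000 UMIs, and sums over all UMIs of the cells so chosen, the shares were 11.3% and 8.41%, 0 genes were lower in cycling cells, and 156 were higher and 167 lower in KO. Cycling over other had medians in WT of -0.0845 for melanosome, -0.19 for lineage, -0.0933 for translation and 0.19 for the S list, and in KO of 0.0109 for nucleotide synthesis, -0.15 for respiration and -0.31 for translation. KO over WT had medians of 0.0803 for mitotic kinases, -0.24 for condensation, -0.16 for respiration and -0.24 for translation. Among ratios past 2-fold, signs turned for Fcer1g (KO over WT, 0.12), Rrm2 (cycling over other, WT, -0.0259), and in KO cycling over other for Mgll (0.71), Ncapd2 (-0.18) and Cxcl14 (-2.71).

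With a mesenchymal cap of 2 UMIs the KO share was 16.5% and the difference -11.9 points, 2 genes were lower in cycling cells, and 122 were higher and 101 lower in KO. KO over WT had medians of 0.24 for condensation, 0.16 for histone chaperones, -0.12 for respiration and 0.00155 for the G2/M list, and Uty turned in KO cycling over other (1.30). Without cells holding markers of another class, 34 genes were lower in KO, and Krt10 turned in KO cycling over other (0.0594).

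With the mean over cells, 2 genes were lower in cycling cells and the WT replication median was 0.84. With at least 20 CPM, 117 genes were higher and 7 lower in cycling cells, and 188 higher and 174 lower in KO. With at least 100 CPM, 30 were higher in cycling cells, and 13 higher and 2 lower in KO. With scaling without mitochondrial, ribosomal protein, globin and rule genes, 73 were higher and 4 lower in cycling cells, 98 higher and 71 lower in KO, and WT medians were -0.16 for lineage and -0.0853 for respiration. Lists without the rule's own genes were added after the values were seen: the summed KO over WT ratios were 0.0352 for melanosome and 1.86 for mesenchymal genes.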
